A study of Mus musculus with 16 samples.

Results

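The transcripts of 7 folate-dependent one-carbon enzymes, Mthfd1, Mthfd1l, Mthfd2, Mthfd2l, Aldh1l1, Aldh1l2 and Tyms, were followed across RNA sequencing of mouse hepatocytes. The genes were taken by name from a table of 54532 genes and grouped by where their products act. Mthfd1l, Mthfd2, Mthfd2l and Aldh1l2 encode the 4 mitochondrial enzymes, Mthfd1 and Aldh1l1 the 2 cytosolic ones, and Tyms is the 1 enzyme counted here as linked to nucleotide synthesis. All 7 were found, and all 7 were among the 11395 genes whose mean over the libraries reached 1 FPKM, a count of fragments scaled to gene length in kb and to library depth in M. Aldh1l2 reached that mean only through the co-cultures.

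The 16 libraries formed 5 groups. Hepatocytes were grown alone (monoculture, n = 3), beside cancer cells wild type for Phgdh (n = 3), or beside Phgdh knockout cancer cells (n = 3). The same pair of co-cultures was also made with a CXCR2 inhibitor, with wild-type (n = 3) or knockout (n = 4) cancer cells. Phgdh codes for the enzyme that starts serine synthesis, and CXCR2 is a chemokine receptor. The alteration was in the cancer cells, and every library with the inhibitor was a co-culture, so the inhibitor had no group of hepatocytes alone. Cxcr2 itself was at most 0.0727 FPKM in the 16 libraries, and which cells the inhibitor acted on was not tested. The labels call the hepatocytes a cell line and give no strain, age, dose, duration, vehicle, culture format or batch. They do not say whether the knockout is 1 clone. Nor do they say that replicates came from different cultures, and p-values therefore reflect only how far the libraries spread, which may be technical. The series' design text names the cancer cells (HY19636) as the sequenced material. The labels name hepatocytes for every library, and the labels were followed.

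Recovered depth was 15.0 to 21.3 M fragments per library, and 1 fragment in a gene of 1 kb was worth 0.0457 to 0.0648 FPKM. All 13 hepatocyte markers on the list were in the table, and 10 of them had a mean of 1 FPKM or more. Their summed level was 257 to 262 FPKM in monoculture, 144 to 183 in the co-cultures without the inhibitor and 773 to 1056 with it. Alb, the albumin gene, averaged 57.1 FPKM alone, and Hnf4a, a hepatocyte transcription factor, 46.6, while Cyp2e1 and Pck1 stayed at or below 0.33. Cps1, Tat and Cyp3a11, counted among the 10, averaged only 0.210, 0.409 and 0.0657 FPKM in monoculture. With wild-type cells and the inhibitor these genes averaged 10.7, 9.65 and 2.27 FPKM. The rest of the 10 averaged 3.12 FPKM (Apoa1) or more in monoculture, and Apoa1 averaged 0.494 in the wild-type co-culture. Of 12 pancreatic epithelial markers, 3 (Msln, Krt19 and Krt7) had a mean of 1 FPKM or more. Agr2 and Tff1 were listed at 0 in every library, and Epcam was at most 0.21 FPKM. The sum of these 12 was 294 to 309 FPKM in monoculture, which held no cancer cells, 192 to 230 in co-culture and 555 to 636 with the inhibitor. The stellate cell, endothelial and neutrophil lists each summed to at most 0.422 FPKM, and of the 8 macrophage markers Adgre1, Cd163, Clec4f, Marco and Vsig4 were at 0, with a sum of 0.501 to 5.75 carried by Cd68. The part that these marker shifts have in the results below was not tested. In bulk RNA, fewer cells of a type and less RNA per cell cannot be told apart.

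Folate carries single carbon units between oxidation states, in parallel sets of enzymes in mitochondria and cytosol. In mitochondria, MTHFD2 or its relative MTHFD2L oxidises methylene-tetrahydrofolate made from serine or glycine, MTHFD1L releases the unit as formate, and ALDH1L2 can instead burn it to carbon dioxide while making NADPH. In the cytosol, MTHFD1 takes up formate and makes the folate forms used for purines and thymidylate, and ALDH1L1, a protein abundant in liver, oxidises formyl-folate. TYMS uses methylene-tetrahydrofolate to make thymidylate for DNA.

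Upstream sequences are shown for Mthfd2, Aldh1l1 and Tyms, 1 gene for each compartment or role, since these 3 showed clear and differing patterns across the groups. They are the 250 bases before the RefSeq start in the GRCm38.p6 build, written 5′ to 3′ on the strand of the gene. Mthfd2 is at chr6:83317605-83317854 on the minus strand, Aldh1l1 at chr6:90550543-90550792 on the plus strand, and Tyms at chr5:30073626-30073875 on the minus strand. The windows of Mthfd2 and Aldh1l1 lie inside the gene spans given below, whose annotated starts are farther upstream and were not searched. Capitals mark CCAAT, on either strand (ATTGG on the other), and CACGTG.
Mthfd2: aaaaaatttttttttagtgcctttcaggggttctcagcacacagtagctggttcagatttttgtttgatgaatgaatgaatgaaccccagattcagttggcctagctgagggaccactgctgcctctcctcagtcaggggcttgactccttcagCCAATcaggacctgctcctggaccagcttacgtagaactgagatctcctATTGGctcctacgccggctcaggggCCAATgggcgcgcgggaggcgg
Aldh1l1: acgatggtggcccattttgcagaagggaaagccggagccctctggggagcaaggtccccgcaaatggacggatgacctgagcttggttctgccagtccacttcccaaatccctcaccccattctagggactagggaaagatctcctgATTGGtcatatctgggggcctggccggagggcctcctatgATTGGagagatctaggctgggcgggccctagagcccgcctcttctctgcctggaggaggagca
Tyms: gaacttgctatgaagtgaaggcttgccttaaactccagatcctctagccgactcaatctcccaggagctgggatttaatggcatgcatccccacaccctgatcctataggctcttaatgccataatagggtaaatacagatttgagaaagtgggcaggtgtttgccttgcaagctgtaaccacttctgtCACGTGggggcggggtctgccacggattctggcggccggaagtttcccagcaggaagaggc

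Such windows were found for 6 of the 7 genes, all but Aldh1l2. The 4 motifs were searched on both strands, none overlapping another in these windows. TGATGNAA, the core of the amino acid response element, matched in none of the 6 windows and in 3.45% of 32817 RefSeq windows of this length. TTTNGCGC, an E2F motif, also matched in none of the 6, and in 1.13% of all windows. CACGTG, the E box, matched once in Tyms, at bases -61 to -56 from the start, and in 6.02% of all windows. CCAAT, which was added after the sequences were seen, matched 3 times in Mthfd2 (starting at -96, -47 and -22), 2 times in Aldh1l1 and 1 time in Mthfd1. It was in 33.8% of all windows, and 2.79% held 3 or more. These matches describe letters, not bound sites, and a missing match says only that the letters are not in that window.

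Mthfd2, the mitochondrial dehydrogenase, and Aldh1l2 had the largest rises in co-culture among the 7. Mthfd2 (ENSMUSG00000005667) lies at chr6:83305691-83325908 on the minus strand, and Aldh1l2 (ENSMUSG00000020256) at chr10:83487450-83534140 on the minus strand, in GRCm38. Mthfd2 stood at 35.0, 38.6 and 38.5 FPKM in the 3 monoculture libraries and at 71.1, 66.7 and 69.8 with wild-type cancer cells. With knockout cells it was 62.4, 66.3 and 63.0 FPKM. The co-culture libraries were all above the monoculture ones. The mean rose 1.85-fold with wild-type cells, from 37.4 ± 2.04 (SD, n = 3) to 69.2 ± 2.24 FPKM (SD, n = 3). On the log2(FPKM + 1) scale that was 0.87 ± 0.04 (SE; limma adjusted p = 1.9e-10), and 0.76 ± 0.04 with knockout cells (limma adjusted p = 9.5e-10).

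With the inhibitor, Mthfd2 was lower than in monoculture. The libraries read 29.9, 29.3 and 29.6 FPKM with wild-type cells and 29.2, 27.9, 29.5 and 28.3 with knockout cells, with no overlap with any library lacking the inhibitor. Against co-culture without it, the log2 change was -1.20 ± 0.04 (SE; limma adjusted p = 5.6e-12) with wild-type cells and -1.13 ± 0.04 (limma adjusted p = 4.3e-12) with knockout cells. Against monoculture, the changes were -0.32 ± 0.04 and -0.37 ± 0.04, each past the threshold of 0.05 on the adjusted p.

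Aldh1l2 was low in monoculture, at 0.617, 0.443 and 0.717 FPKM, or 79, 53 and 110 fragments. It passed the filter of 1 FPKM only through the co-cultures. It reached 11.0, 10.1 and 10.3 FPKM with wild-type cells and 10.3, 10.5 and 10.6 with knockout cells. No co-culture library came near the monoculture libraries. The ratio of the FPKM means was 17.7 for each, and the log2(FPKM + 1) change, which understates the change of a low gene, was 2.85 ± 0.06 (SE; limma adjusted p = 2.5e-14) and 2.86 ± 0.06. With the inhibitor Aldh1l2 stood at 5.15, 5.54 and 5.44 FPKM with wild-type cells, and at 5.04, 4.65, 5.03 and 4.80 with knockout cells. These values lie between the monoculture and the co-cultures without the inhibitor. The log2 change with the inhibitor was -0.85 ± 0.06 with wild-type cells (limma adjusted p = 1.1e-08) and -0.97 ± 0.06 with knockout cells (limma adjusted p = 1.0e-09). Against monoculture Aldh1l2 remained higher, by 2.01 ± 0.06 and 1.89 ± 0.06. Aldh1l2 shares 1056 of its 7503 exonic bases with D10Wsu102e on the opposite strand, and strandedness is not given in the sources used here. D10Wsu102e itself stayed at 0.566 to 0.735 FPKM in all libraries, but its exons cover 123179 bases. Its level therefore says little about reads in the shared bases.

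**Figure D1:**
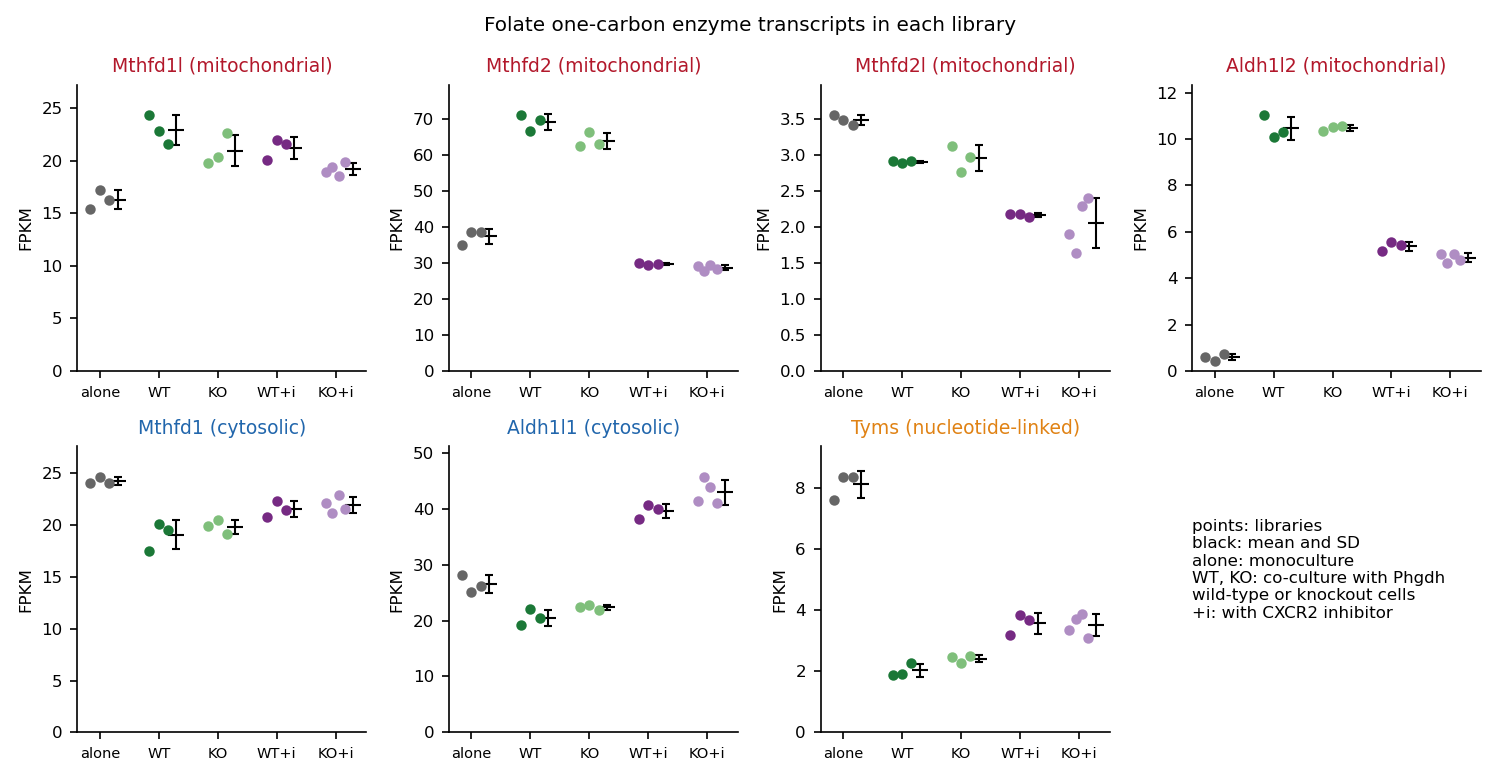
FPKM of each of the 7 genes in each of the 16 libraries (points), by group, with the group mean and SD in black. Mthfd2 and Aldh1l2 are highest in the co-cultures without the inhibitor, Aldh1l1 is highest with it (38.2 to 45.7 FPKM), and Tyms is highest in monoculture (7.60 to 8.36 FPKM).

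In co-culture without the inhibitor, Mthfd1l rose less than Mthfd2, and Mthfd2l was slightly lower than in monoculture. Mthfd1l (ENSMUSG00000040675, chr10:3973118-4167081, plus strand), whose product releases formate, was 15.4 to 17.2 FPKM in monoculture, 21.6 to 24.3 with wild-type cells and 19.8 to 22.7 with knockout cells. It rose by 0.47 ± 0.06 and 0.34 ± 0.06 on the log2 scale (SE; limma adjusted p = 7.7e-06 and 0.00015). With the inhibitor it was 20.1 to 22.0 and 18.5 to 19.9 FPKM, and the ranges overlapped those without it. The inhibitor change of -0.11 ± 0.06 (95% confidence interval -0.23 to 0.02; limma adjusted p = 0.127) with wild-type cells did not pass the test, nor did -0.12 ± 0.06 (limma adjusted p = 0.067) with knockout cells, although it passed without knockout co-culture replicate 1 (limma adjusted p = 0.0378). Against monoculture, Mthfd1l with the inhibitor was higher by 0.36 ± 0.06 with wild-type cells (limma adjusted p = 8.6e-05) and 0.22 ± 0.06 with knockout cells (limma adjusted p = 0.0024). Mthfd2l (ENSMUSG00000029376, chr5:90931117-91021368, plus strand) was the lowest of the mitochondrial genes in every co-culture group, at 3.42 to 3.56 FPKM in monoculture, 2.89 to 2.92 with wild-type cells and 2.77 to 3.14 with knockout cells. Its log2 change of -0.20 ± 0.08 with wild-type cells passed the test by little (limma adjusted p = 0.039), and it did not pass when any 1 of the 6 libraries compared was left out (limma adjusted p from 0.0635 to 0.0921). With knockout cells, -0.18 ± 0.08 did not pass (limma adjusted p = 0.061), but it passed when only the libraries compared were fitted (limma adjusted p = 0.035). Mthfd2l fell with the inhibitor, to 2.14 to 2.19 FPKM with wild-type cells (-0.30 ± 0.08, limma adjusted p = 0.0040) and 1.64 to 2.40 with knockout cells (-0.38 ± 0.07, limma adjusted p = 0.00036). Against monoculture these were -0.50 ± 0.08 (limma adjusted p = 6.0e-05) and -0.56 ± 0.07 (limma adjusted p = 9.0e-06), larger in size than the changes of Mthfd2 in the same comparisons.

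The cytosolic genes fell where Mthfd2 and Aldh1l2 rose, in co-culture without the inhibitor, and rose with the inhibitor. Aldh1l1 (ENSMUSG00000030088, chr6:90486427-90600203, plus strand) read 28.2, 25.1 and 26.3 FPKM in monoculture, and 19.1, 22.0 and 20.4 with wild-type cells. With knockout cells it was 22.5, 22.8 and 21.9. It was lower in every co-culture library without the inhibitor than in any monoculture library, by -0.36 ± 0.06 with wild-type cells (SE; limma adjusted p = 7.4e-05) and -0.23 ± 0.06 with knockout cells (limma adjusted p = 0.0026). With the inhibitor Aldh1l1 was 38.2, 40.7 and 39.9 FPKM with wild-type cells and 41.3, 45.7, 43.9 and 41.0 with knockout cells, above every other library. The inhibitor change was 0.92 ± 0.06 (1.93-fold of the FPKM mean; limma adjusted p = 2.3e-09) and 0.91 ± 0.05 (1.92-fold; limma adjusted p = 1.1e-09). Against monoculture it was 0.56 ± 0.06 and 0.68 ± 0.05 higher, with both called. The summed hepatocyte markers were 773 to 1056 FPKM in the libraries with the inhibitor, against 144 to 183 in the co-cultures without it. The summed pancreatic epithelial markers were higher there too, at 555 to 636 FPKM against 192 to 230. The part of these shifts in the Aldh1l1 change was not tested.

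Mthfd1 (ENSMUSG00000021048, chr12:76255298-76319803, plus strand), the cytosolic enzyme with several folate activities, ranged from 24.0 to 24.7 FPKM in monoculture, 17.5 to 20.1 with wild-type cells and 19.2 to 20.5 with knockout cells. The log2 changes were -0.34 ± 0.05 (SE; limma adjusted p = 3.7e-05) and -0.28 ± 0.05 (limma adjusted p = 0.00022). With the inhibitor it was 20.8 to 22.4 FPKM with wild-type and 21.2 to 22.9 with knockout cells, above the co-cultures without it by 0.17 ± 0.05 (limma adjusted p = 0.0075) and 0.14 ± 0.05 (limma adjusted p = 0.016). The first of these missed when only the libraries compared were fitted (limma adjusted p = 0.060). Against monoculture it stayed lower, by -0.17 ± 0.05 and -0.14 ± 0.05. These 2 small differences passed as deposited (limma adjusted p = 0.0092 and 0.017) but not after quantile normalization, rescaling or voom. The difference with knockout cells also missed without monoculture replicate 2 (limma adjusted p = 0.0565). The inhibitor change with knockout cells missed without knockout co-culture replicate 3 (limma adjusted p = 0.0713).

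Tyms (ENSMUSG00000025747, chr5:30058202-30073617, minus strand), thymidylate synthase, was the member that fell most in co-culture. It read 7.60, 8.36 and 8.36 FPKM in monoculture and 1.88, 1.92 and 2.28 with wild-type cells. With knockout cells it was 2.46, 2.27 and 2.49. The co-culture libraries lay well below the monoculture ones, and the mean with wild-type cells was 0.25 times that of monoculture. The log2 changes were -1.59 ± 0.08 (SE; limma adjusted p = 2.0e-10) and -1.42 ± 0.08 (limma adjusted p = 7.7e-10). With the inhibitor Tyms was 3.18, 3.85 and 3.67 FPKM with wild-type cells, and 3.36, 3.69, 3.88 and 3.10 with knockout cells. It was thus above the co-cultures without the inhibitor and below monoculture in every library, with inhibitor changes of 0.59 ± 0.08 (limma adjusted p = 1.0e-05) and 0.40 ± 0.07 (limma adjusted p = 0.00020). Against monoculture it was -0.998 ± 0.08 and -1.02 ± 0.07, with both called.

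Against monoculture, 3 members were higher and 4 lower with wild-type cells, by limma at an adjusted p under 0.05, beside 62.0% of all 11395 genes called (30.1% higher, 31.9% lower). With knockout cells 3 were higher and 3 lower, beside 61.5% of all genes (30.3% and 31.2%). With the inhibitor 3 were higher and 4 lower in each co-culture, beside 66.8% of all genes (32.1% and 34.7%) with wild-type cells and 69.4% (33.3% and 36.1%) with knockout cells. Comparing the inhibitor with none, 3 members were higher and 3 lower with wild-type cells (66.6% of all genes called, 33.5% higher and 33.0% lower) and 3 and 3 with knockout cells (69.5% called, 34.8% and 34.7%). Most genes of the table were thus called in these comparisons, and a call by itself does not set a member apart. The median absolute log2 change of the 7 against monoculture was 0.47 with wild-type and 0.34 with knockout cells, beside 0.29 and 0.28 over all genes. With the inhibitor against monoculture it was 0.50 and 0.56, beside 0.32 and 0.33. For the inhibitor against none it was 0.59 with wild-type and 0.40 with knockout cells, beside 0.32 and 0.33. The comparisons with monoculture share its 3 libraries, and each inhibitor comparison shares its co-culture libraries with a comparison to monoculture.

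**Figure D2:**
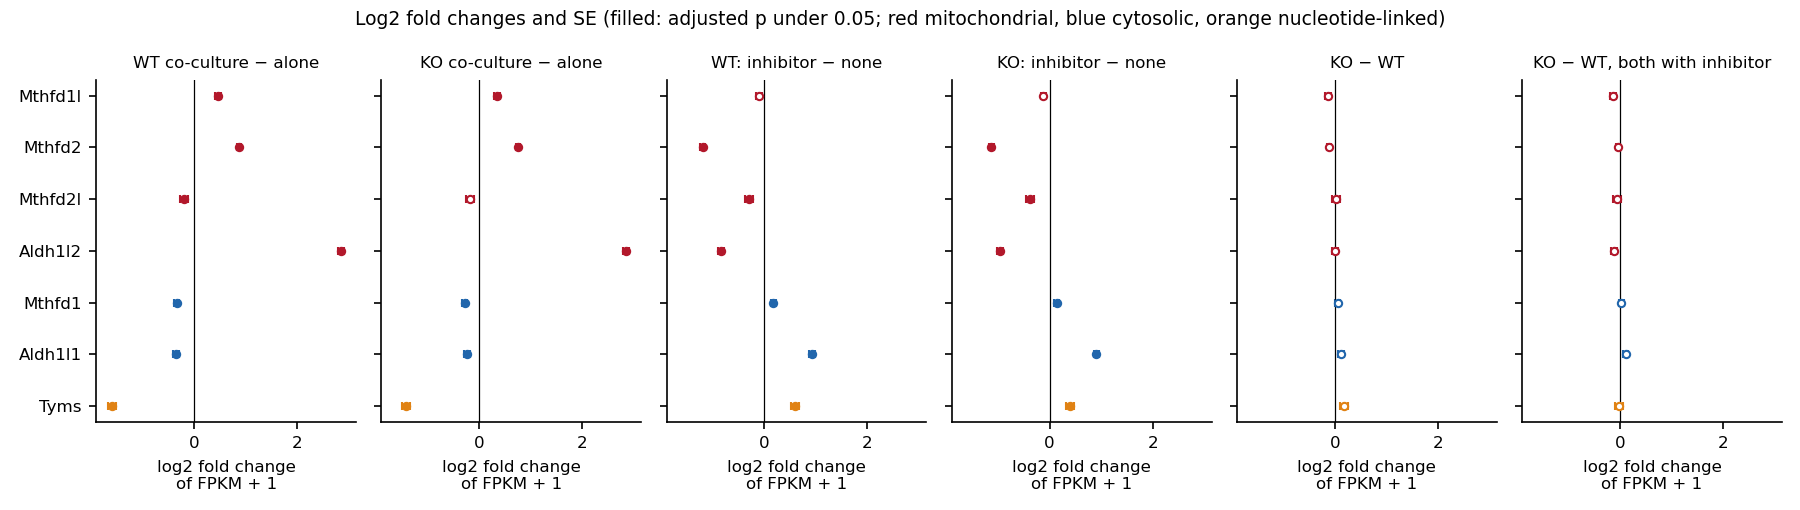
Log2 fold change of FPKM + 1 with its SE for each of the 7 genes, in 6 comparisons (filled points: adjusted p under 0.05; red mitochondrial, blue cytosolic, orange Tyms). The largest rise in co-culture is that of Aldh1l2 (2.85 with wild-type cells), and no point is filled between knockout and wild-type co-cultures.

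The knockout of Phgdh in the cancer cells did not give a call for any of the 7 genes in the hepatocytes. Without the inhibitor, 0 of 7 passed the test by limma, beside 2.99% of all genes (341), with the limma adjusted p at 0.223 or more. At an unadjusted p under 0.05 there were 3, Mthfd2, Tyms and Aldh1l1. The share of all genes at that unadjusted p was not counted, here or with the inhibitor, and 2.99% is not its match. The 95% confidence interval of the log2 difference, knockout minus wild type, was -0.20 to -0.02 for Mthfd2, 0.01 to 0.34 for Tyms and -0.12 to 0.13 for Aldh1l2. It was -0.25 to 0.00 for Mthfd1l, -0.15 to 0.19 for Mthfd2l, -0.05 to 0.17 for Mthfd1 and 0.00 to 0.25 for Aldh1l1. The libraries of the groups did not overlap for Mthfd2 and overlapped for the other 6 genes. The share of all genes without overlap was not counted, so this separation does not set Mthfd2 apart. With the inhibitor, 0 of 7 passed as well, beside 2.31% of all genes, with 1 (Mthfd1l) at an unadjusted p under 0.05, and the interval was -0.13 to 0.04 for Mthfd2 and -0.00 to 0.23 for Aldh1l1. It was -0.25 to -0.02 for Mthfd1l, -0.22 to 0.10 for Mthfd2l, -0.24 to 0.00 for Aldh1l2, -0.07 to 0.13 for Mthfd1 and -0.18 to 0.14 for Tyms. Libraries did not overlap for Mthfd1l, Aldh1l2 and Aldh1l1, again with no share over all genes counted. In the interaction test no difference of the inhibitor effect between genotypes was called for the 7 (0 called, beside 0.816% of all genes; lowest limma adjusted p = 0.569). The interaction interval was -0.42 to 0.04 for Tyms and -0.06 to 0.20 for Mthfd2. It was -0.19 to 0.16 for Mthfd1l, -0.31 to 0.15 for Mthfd2l, -0.30 to 0.05 for Aldh1l2, -0.18 to 0.11 for Mthfd1 and -0.18 to 0.16 for Aldh1l1. A p that misses the threshold does not show that genotypes act alike, and these intervals bound the difference.

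Ratios of a mitochondrial to a cytosolic gene within each library set these patterns side by side. They have no test of their own, and levels are per kb of the length in the table. Mthfd2 over Mthfd1 was 1.54 ± 0.0781 in monoculture (SD, n = 3), 3.65 ± 0.383 with wild-type and 3.22 ± 0.0740 with knockout cells, and 1.38 ± 0.0633 (n = 3) and 1.31 ± 0.0134 (n = 4) with the inhibitor. Mthfd1l over Mthfd1 was below 1 in monoculture, at 0.672 ± 0.0288, and 1.21 ± 0.159 and 1.06 ± 0.108 in the co-cultures, where the knockout libraries spanned 0.994 to 1.18. With the inhibitor it was 0.985 ± 0.0199 and 0.875 ± 0.0544. By the length of the principal transcripts the knockout ratio was below 1, at 0.929, and the wild-type ratio was 1.06.

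Aldh1l2 made up 2.18% ± 0.461 of the summed FPKM of Aldh1l2 and Aldh1l1 in monoculture, 33.9% ± 2.60 and 31.9% ± 0.600 in the co-cultures with wild-type and knockout cells, and 11.9% ± 0.0628 and 10.2% ± 0.700 with the inhibitor. Aldh1l1 was thus the more abundant of the 2 in every library. Mthfd2l over Mthfd1 varied less, from 0.144 in monoculture to 0.153 and 0.150 in the co-cultures and 0.101 and 0.0936 with the inhibitor. Mthfd2 exceeded its relative Mthfd2l 10.7-fold in monoculture, 23.8-fold and 21.6-fold in co-culture, and 13.6-fold and 14.3-fold with the inhibitor. All these ratios between genes depend on the length used, and those with Mthfd2l most, since the table gives Mthfd2l a length 3.08 times that of its principal transcript. With that transcript's length, the monoculture ratio of Mthfd2 over Mthfd2l was 5.82.

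**Figure D3:**
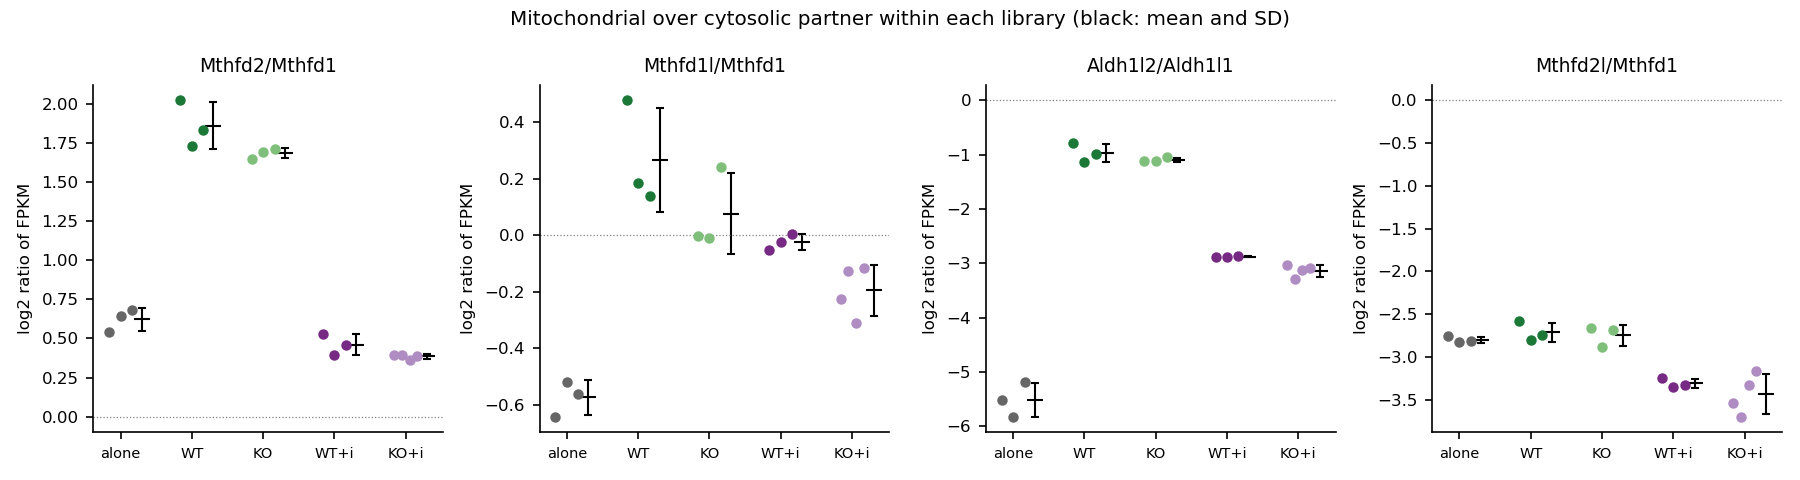
Log2 ratio of FPKM of a mitochondrial gene over a cytosolic one in each library (points), by group, with mean and SD in black; axes do not start at 0. Mthfd2 over Mthfd1 and Aldh1l2 over Aldh1l1 are higher in both co-cultures without the inhibitor than in monoculture or with it.

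Genes of the same pathway, on lists of fixed membership, moved in more than one direction in the wild-type co-culture. Shmt2, the mitochondrial serine enzyme that feeds Mthfd2, rose by 0.78 ± 0.07 (SE, limma), and its cytosolic counterpart Shmt1 fell by 0.75 on the log2 scale. Mtrr, which keeps methionine synthase active, rose by 0.76. With the inhibitor in the wild-type co-culture, Shmt2 and Mtrr each fell by 0.79, and Shmt1 had 0.12, which was not called (limma adjusted p = 0.106) but passed after rescaling and under voom (limma adjusted p = 0.036 and 0.037). In the knockout co-culture Shmt1 rose by 0.40 with the inhibitor (limma adjusted p = 3.2e-05). Of 7 transport and retention genes 5 were tested, and 4 were higher in co-culture, beside 30.1% of all genes higher, among them Slc46a1 (0.57), a proton-coupled folate transporter, and Slc25a32 (0.27), the mitochondrial folate carrier. With the inhibitor 3 were lower, beside 33.0% of all genes, with Slc46a1 at -1.24 and Ggh, which trims folate polyglutamates, at -0.97, while Slc25a32 (-0.03) did not pass.

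The 3 users of formyl groups, Gart, Atic and Mtfmt, gave 0 calls by limma in the wild-type co-culture, beside 62.0% of all genes called (Gart -0.07, Atic -0.04). With the inhibitor Gart rose by 0.41, and Atic had -0.10, which passed, but not without 5 of the 6 libraries compared, each left out in turn. The Atic call was also lost under quantile normalization, rescaling and voom (limma adjusted p = 0.084, 0.259 and 0.220). Of 6 genes for glycine and choline breakdown in mitochondria 5 were tested, and 2 were higher and 1 lower in co-culture, beside 30.1% and 31.9% of all genes. Gldc, the decarboxylase of the glycine cleavage system, fell by 1.54 in co-culture and rose by 1.88 with the inhibitor, and Amt of the same system rose by 0.36 and 1.14. Amt averaged 0.978 FPKM in monoculture, below the filter of 1 FPKM. The first call for Amt (limma adjusted p = 0.029) was lost without a filter, with only the libraries compared, and without monoculture replicate 2, monoculture replicate 3 or wild-type co-culture replicate 3.

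**Figure D4:**
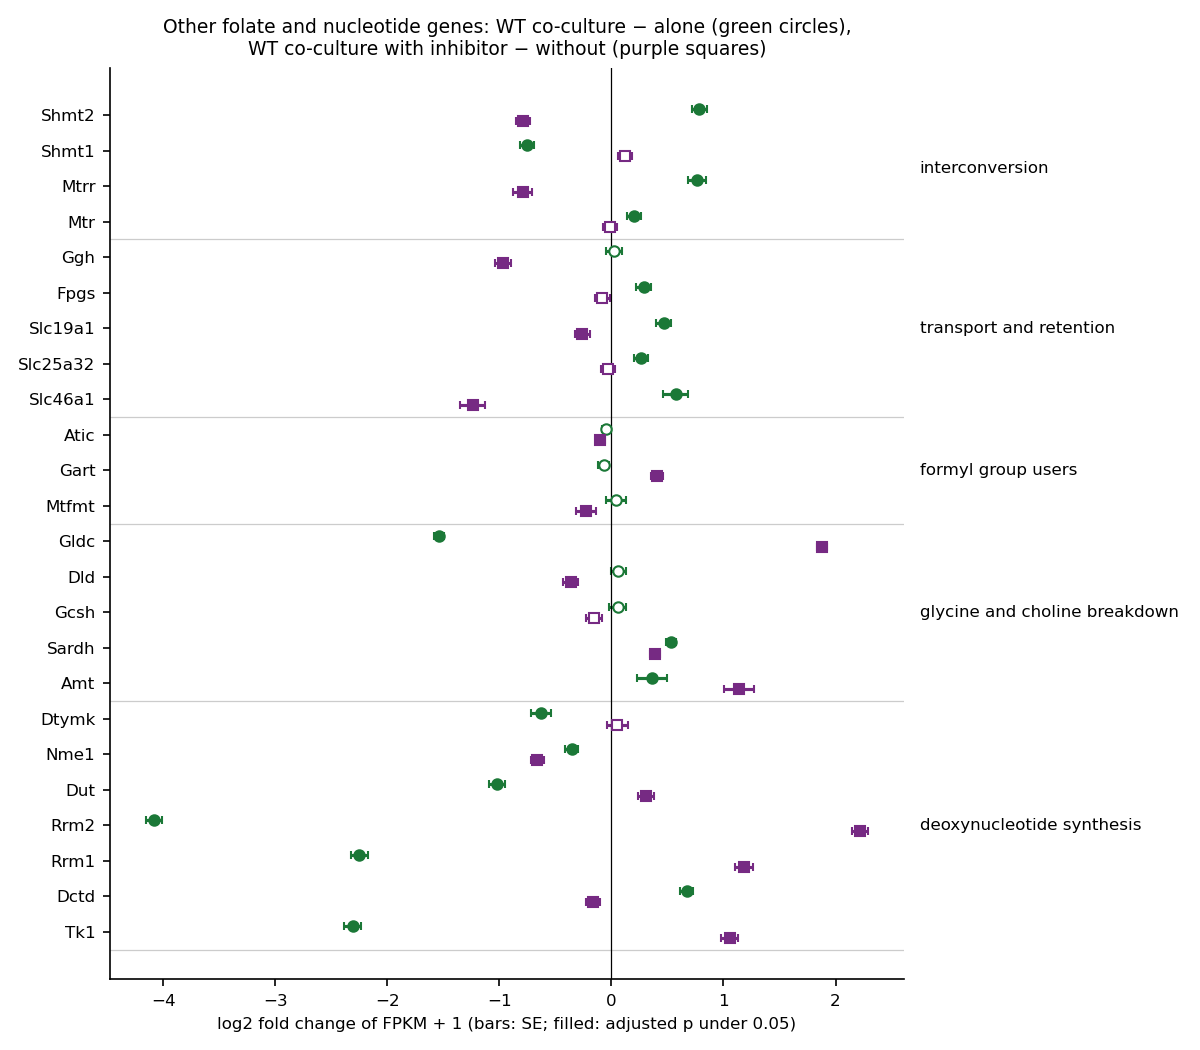
Log2 fold change of FPKM + 1 with SE for genes of the folate and deoxynucleotide lists, in wild-type co-culture against monoculture (green circles) and for the inhibitor in the wild-type co-culture (purple squares); filled points have an adjusted p under 0.05. Rrm2 (-4.08 and 2.22) is the largest in both, and the 2 comparisons share the wild-type libraries.

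Most genes of DNA synthesis fell in the comparison where Tyms fell. Of 8 deoxynucleotide genes 7 were lower and 1 higher in the wild-type co-culture, with a median of -1.35, against 0.01 over all genes. Rrm2, a subunit of ribonucleotide reductase, had -4.08 ± 0.07 (SE, limma), Tk1, thymidine kinase, -2.31, and Rrm1, the other reductase subunit, -2.25. With the inhibitor 5 were higher and 2 lower, with a median of 0.41. All 14 replication and S-phase genes on the list were lower in co-culture (median -1.91), led by Mki67 (-3.72), Top2a (-3.17) and Mcm5 (-2.74). Mki67, Cdc45, Cdc6 and Gins2 averaged 0.719, 0.926, 0.543 and 0.827 FPKM in the wild-type co-culture, below the filter of 1 FPKM. These genes passed it only through groups where they were higher, so being lower there was partly set by the filter. With the inhibitor 13 of the 14 were higher and 1, Mcm7, was lower. Mki67 had 3.21 and Top2a 2.15. Of 11 purine synthesis genes 7 were lower and 2 higher in co-culture, led by Paics (-0.67). The lists were chosen with earlier results of these data known, so these counts are descriptions. Over all genes, 62.0% were called in the wild-type co-culture (30.1% higher, 31.9% lower). For the inhibitor in that co-culture 66.6% were called (33.5% higher, 33.0% lower).

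A list of targets of ATF4, a transcription factor of the amino acid and stress response, held 18 tested genes, Atf4 itself among them. Slc7a11, also on it, averaged 0.573 FPKM in monoculture and passed the filter only through the co-cultures. Of the 18, 15 were higher in the wild-type co-culture and 2 lower, beside 30.1% and 31.9% of all genes, with a median of 1.62. Trib3 had 3.44 ± 0.08 (SE, limma), Cth 2.57 and Pycr1 2.36. With the inhibitor 14 were lower, 0 higher and 4 did not pass, beside 33.0% lower and 33.5% higher over all genes, with a median of -0.77. The 2 lower genes were Cebpb (-0.37) and Psat1 (-0.24), an enzyme of serine synthesis. Phgdh, of the same pathway, had -0.04 and was not called. Psph, also of serine synthesis, went the other way. It averaged 9.17 FPKM in monoculture, 25.6 in the wild-type co-culture and 10.5 in that co-culture with the inhibitor.

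Genes with the most similar profile to each member were taken over all 16 libraries by the root mean square difference of the centred log2(FPKM + 1). For Mthfd2 these were Tmem97 (0.09), Soat1 (0.09) and Bicdl1 (0.09). For Aldh1l2 they were Sdf2l1 (0.16), Stbd1 (0.18) and Creld2 (0.20), and Sdf2l1 averaged 23.4 FPKM in monoculture and 173 with wild-type cells. The nearest to Aldh1l1 was Bsg (0.06), followed by Pnpla2 and Ephx1, and the nearest to Tyms was Cdc7 (0.11), followed by Fancb and Nuak2. Mthfd1l was closest to Wdfy2 (0.07), then Scap and Ipo4. Mthfd2l was closest to Ap3s1 (0.07), and Gfod2 was also near. Mthfd1 was closest to Mapkapk2 (0.05), then Pex19 and septin 9, whose symbol had become a date in the table.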

How the data were processed

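RNA-seq values of 16 libraries in 5 groups were used as deposited by the authors, in FPKM per gene, with no pooling of replicates. An RNeasy mini kit and the library protocols of Novogene are named, per the labels. HISAT2 and the builds GRCm38 and mm10 are named in the submitters' processing notes. The sources used here do not give the counting tool, annotation release or strandedness. Values times gene length came out as whole fragments (99.98% or more of values within 0.1) in every library. Depth speaks to counting error only, since PCR duplicates cannot be told from molecules. The 95% confidence intervals come from limma and the spread between libraries. The table's coordinates and lengths for the 7 genes equal GENCODE M21 in position and exon union. Dates stood in place of 27 symbols.

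FPKM was taken as log2(FPKM + 1), and those 11395 whose mean reached 1 FPKM were tested in limma 3.58.1 (R 4.3.3) with 1 mean per group over all libraries, an intensity trend, two-sided tests, 11 residual degrees of freedom and Benjamini-Hochberg adjustment over all genes tested, at 0.05. The authors' scaling left the sum of recovered fragments over their divisor at 0.971 to 1.03 by group. Groups came from the titles. Members and gene lists were chosen with earlier results of these data known. The text names the 7 members in every comparison, for each the 3 genes of nearest profile, the list genes with the largest changes past the threshold (up to 3 per list), and Shmt1, Shmt2, Slc25a32, Gart and Atic. Some genes that this rule names are not reported here. Psat1, Phgdh, Psph, Cebpb, Mcm7, Mcm3 and Sesn2 were added after their values were seen. Alternatives were another pseudocount, filter, scaling, set of libraries, replicate block, left-out library and voom. A self-test on simulated counts, with the same dispersion for every gene, covered only the wild-type co-culture against monoculture. It does not give error rates for these data.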

Additional observations from a re-analysis of the deposited data

Results flagged for a closer look

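None of the 7 members met a rule for a closer look. The 12 sets of 4 values tested for a library far from the rest all came from the knockout co-culture with the inhibitor. They cover the members and their ratios, and 0 passed the limit. Groups of 3 libraries were not tested in this way. No member had an inhibitor effect called as differing by genotype. Such a difference was found by the interaction test in 5 genes of the wider lists, given as log2 inhibitor effect with knockout minus that with wild-type cells. Sardh, of choline breakdown, had 0.32, Rrm2 -0.52, Mcm3 -0.33, Top2a -0.31 and Sesn2, an ATF4 target, 0.29, with limma adjusted p between 0.0288 and 0.0491. Sesn2 and Top2a lost the call in most of the 22 alternatives (20 and 18), Sardh in 13, and Mcm3 and Rrm2 in 11 each. The direction was kept in all.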

How the results depend on the processing

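Of 997 alternative member log2 changes, 974 kept their side of the threshold, 20 lost the call and 3 gained it. In 0 did the sign reverse with a call in either fit. A change of sign between values that both missed the threshold was counted as kept. Mthfd2l in wild-type co-culture lost the call in most alternatives, and Mthfd1 against monoculture with the inhibitor lost it under quantile normalization, rescaling and voom. The 2 planned count-model tests were not run, as they cannot take FPKM, and limma voom on recovered fragments was added in their place. The 3 alternatives chosen after seeing the data were voom, principal transcript length and a minimum absolute log2 change of 0.5. That minimum left members called at 3 with wild-type and 3 with knockout cells against monoculture, 3 and 4 with the inhibitor against monoculture, and 3 for the inhibitor in the knockout co-culture. All genes called under it were 3034, 2947, 3413 and 3579 against monoculture, 35 and 29 between genotypes without and with the inhibitor, 3515 and 3610 for the inhibitor, and 32 for the interaction. With only the libraries compared, 17 genes were called between genotypes without the inhibitor and 41 for the interaction, against 341 and 93. Without a filter the interaction gave 55, and with the replicate block 34. Replicate numbers did not pair libraries (correlation -0.30 to 0.27 over 30 pairs), so the block is only a number. It called Mthfd2l with knockout cells (adjusted p = 0.043). Leaving out 1 library gave 157 to 398, 123 to 221 and 31 to 120 genes for genotype without and with the inhibitor and for the interaction. The all-gene median moved by -0.06 to 0.09 under other scalings. Among the 7 genes the fewest fragments were those of Aldh1l2 in monoculture, 53 to 110.

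With the principal transcript length, the mean log2 ratios that moved by more than 1 SD were as follows. Mthfd2 over Mthfd1 was 0.91 (monoculture), 2.15 (wild type), 1.97 (knockout), 0.75 (wild type with the inhibitor), 0.67 (knockout with the inhibitor). Mthfd1l over Mthfd1 was -0.76 (monoculture), 0.080 (wild type), -0.11 (knockout), -0.21 (wild type with the inhibitor), -0.38 (knockout with the inhibitor). Mthfd2l over Mthfd1 was -1.63 (monoculture), -1.54 (wild type), -1.58 (knockout), -2.14 (wild type with the inhibitor), -2.26 (knockout with the inhibitor). Aldh1l2 over Aldh1l1 was -0.77 (wild type), -0.89 (knockout), -2.68 (wild type with the inhibitor), -2.93 (knockout with the inhibitor). Mthfd2 over Mthfd2l was 2.54 (monoculture), 3.69 (wild type), 3.55 (knockout), 2.89 (wild type with the inhibitor), 2.94 (knockout with the inhibitor). With 1 added to both FPKM, the mean log2 ratios that moved by more than 1 SD were as follows. Mthfd2 over Mthfd1 was 1.64 (knockout). Mthfd2l over Mthfd1 was -2.49 (monoculture), -2.36 (wild type), -2.40 (knockout), -2.83 (wild type with the inhibitor), -2.92 (knockout with the inhibitor). Aldh1l2 over Aldh1l1 was -4.11 (monoculture), -1.03 (knockout), -2.67 (wild type with the inhibitor), -2.90 (knockout with the inhibitor). Mthfd2 over Mthfd2l was 3.09 (monoculture), 4.17 (wild type), 4.03 (knockout), 3.27 (wild type with the inhibitor), 3.29 (knockout with the inhibitor). With quantile normalization, the mean log2 ratios that moved by more than 1 SD were as follows. Mthfd2l over Mthfd1 was -2.72 (monoculture), -3.45 (wild type with the inhibitor). Aldh1l2 over Aldh1l1 was -5.13 (monoculture), -2.97 (wild type with the inhibitor). Mthfd2 over Mthfd2l was 4.50 (wild type), 3.90 (wild type with the inhibitor).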
